A study of Mus musculus with 4 samples.

Results

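Tubulin makes the microtubules of dividing and migrating cells and of growing axons, and this account follows 8 of its genes, the alpha-tubulin paralogs Tuba1a, Tuba1b and Tuba1c and the beta-tubulin paralogs Tubb2a, Tubb2b, Tubb3, Tubb4b and Tubb5, in single cells of the embryonic mouse brain. They were taken by symbol as 8 of the 27998 genes of the Illumina matrix and as 15 of the 31986 transcript rows of the Nanopore matrices. The tissue was E18 brain of the C57BL/6 strain (cortex with hippocampus and the ventricular zones), for which the labels name no treatment and no genetic change, and cells were captured with the 10x Genomics Chromium v2 chemistry. A single emulsion gave 2 aliquots, of 190 and of 951 cells. Short reads (Illumina) and long reads (Nanopore) were taken from the cDNA of either aliquot, which makes 4 libraries. The aliquots repeat the measurement on cells of the same suspension, so that every standard deviation and p-value below measures the spread between 2 aliquots and not between animals. In the 1121 of 1141 cells with at least 1400 Illumina genes detected, 186 from the 190 cell aliquot and 935 from the 951 cell aliquot, the 8 genes were all detected on both platforms.

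Microtubules are polymers of dimers, each made of an alpha-tubulin and a beta-tubulin chain. Mammals encode both chains in several genes whose proteins end in acidic tails, where enzymes remove the terminal tyrosine of alpha-tubulin or add chains of glutamate. Tuba1a, Tubb2b and Tubb3 are best known from the developing brain, where mutations disturb neuronal migration and axon growth, and Tubb3 is in wide use as a marker of neurons. Tuba1b, Tuba1c, Tubb4b and Tubb5 are expressed in many dividing tissues. Cells also adjust the stability of tubulin mRNA to the amount of free dimer, through a factor that reads the first residues of the nascent chain.

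The sequences below show how closely the genes resemble each other at the ends of the coding part, since near-identical copies can exchange short reads and since the ends carry the sites named above. The first 12 coding bases are given 5′ to 3′, with codons 2 to 4, which encode the residues read on the nascent chain, in capitals.
Tuba1a, Tuba1b and Tuba1c: atgCGTGAGTGC
Tubb2a: atgCGCGAGATC
Tubb2b: atgCGAGAGATC
Tubb3 and Tubb4b: atgAGGGAGATC
Tubb5: atgAGGGAAATC
The alpha genes were identical over these bases, while the beta genes used 3 different codons at position 2. The last 60 coding bases before the stop codon follow for the beta genes, with the codons for glutamate, GAA and GAG, in capitals.
Tubb2a: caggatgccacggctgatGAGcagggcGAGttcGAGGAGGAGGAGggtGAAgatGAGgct
Tubb2b: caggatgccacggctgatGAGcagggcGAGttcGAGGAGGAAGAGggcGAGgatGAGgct
Tubb3: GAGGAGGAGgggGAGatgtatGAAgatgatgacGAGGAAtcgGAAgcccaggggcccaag
Tubb4b: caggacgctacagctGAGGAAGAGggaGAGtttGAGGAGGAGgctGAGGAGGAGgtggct
Tubb5: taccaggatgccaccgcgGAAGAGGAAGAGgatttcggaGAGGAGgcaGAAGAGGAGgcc
Of the 20 codons, Tubb4b has 10 for glutamate, Tubb5 has 9, and Tubb2a, Tubb2b and Tubb3 have 8. Over the whole coding part, Tuba1a and Tuba1b were 98.3% identical and differed at 23 bases, of which the codons of 2 positions encode different residues. Tubb2a and Tubb2b were 96.5% identical and also differed at 2 translated positions, whereas Tubb3 was 81.2% to 83.4% identical to the other beta genes and differed from them at 38 to 42 translated positions.

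Coding sequences and positions were read from Gencode vM21 (build GRCm38, also called mm10), and each gene has 4 exons in its main transcript. Tuba1a (chr15:98949837-98953703, minus strand), Tuba1b (chr15:98931425-98934565, minus strand) and Tuba1c (chr15:99029891-99038110, plus strand) lie side by side. Tubb2a (chr13:34074274-34078007) and Tubb2b (chr13:34126748-34130466) are neighbours on the minus strand. Tubb3 (chr8:123411424-123422015, plus strand), Tubb4b (chr2:25222160-25224702, minus strand) and Tubb5 (chr17:35833921-35838306, minus strand) stand apart. Illumina reads of 57 bases cover mostly the 3′ end of a transcript. Among the windows of 57 bases in the last 500 bases, 54.1% of those of Tuba1a, 50.7% of those of Tuba1b and 67.6% of those of Tuba1c also occurred in another tubulin transcript. The share was 39.9% for Tubb2a, with Tubb2b and a pseudogene, 20.3% for Tubb4b, with pseudogenes only, and 0 for Tubb2b, Tubb3 and Tubb5. No shared window lay wholly in a 3′ UTR. Short-read counts of Tuba1a, Tuba1b, Tuba1c and Tubb2a are uncertain to the extent that they rest on reads from the shared coding part.

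Promoters of 7 of the 8 genes were found in the RefSeq table for GRCm38.p6 (not Tubb2b). The 150 bases before the start site are shown for Tubb4b and Tuba1c, which like Tuba1b were high in the radial glia-like and cycling classes described below, and for Tubb2a, which was not. Capitals mark matches on either strand to CCAAT, to the TATA box letters TATAAA or to the E-box letters CANNTG.
Tubb4b, chr2:25224703-25224852, minus strand: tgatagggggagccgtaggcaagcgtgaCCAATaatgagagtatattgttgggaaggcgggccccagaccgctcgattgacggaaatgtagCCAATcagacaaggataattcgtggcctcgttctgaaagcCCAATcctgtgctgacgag
Tuba1c, chr15:99029741-99029890, plus strand: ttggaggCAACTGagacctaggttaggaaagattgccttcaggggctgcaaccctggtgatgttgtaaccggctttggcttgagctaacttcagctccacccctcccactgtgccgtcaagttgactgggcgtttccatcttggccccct
Tubb2a, chr13:34078009-34078158, minus strand: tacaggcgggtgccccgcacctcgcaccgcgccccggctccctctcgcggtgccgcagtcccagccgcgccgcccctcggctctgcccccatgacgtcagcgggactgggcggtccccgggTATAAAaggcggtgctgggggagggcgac
Over 250 upstream bases, Tubb4b held 5 matches to CCAAT, the letters known as the CCAAT box, which 33.8% of 32851 promoters of the same length held at least once. Tubb5 held 2 such matches, Tuba1a, Tuba1c and Tubb3 held 1, and Tuba1b and Tubb2a held 0. For Tuba1a and Tuba1b all 150 bases next to this start site, and for Tubb3 129 of them, lay inside a Gencode transcript. The windows of these genes therefore include transcribed sequence. Tubb2a held a TATAAA match 29 bases before the start site, as 12.4% of all promoters do somewhere in this window. These matches describe the letters and no binding was measured.

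The Illumina libraries held 1809081 and 8295650 UMIs (random tags that each mark 1 captured molecule) in the 190 and the 951 cell aliquot, and the Nanopore libraries held 993220 and 4889148 UMIs assigned to an annotated isoform. Cells were grouped from the Illumina counts with every tubulin gene left out, and a group was called "X-like" from marker genes. The classes held, in the 190 and the 951 cell aliquot, 13 and 57 radial glia-like cells, 24 and 93 cycling radial glia-like cells, 17 and 71 intermediate progenitor-like cells, 24 and 126 immature and 43 and 236 mature glutamatergic-like neurons, and 31 and 145 immature and 17 and 124 mature GABAergic-like neurons. A cluster with Hs6st2 among its leading genes stayed unnamed (14 and 70 cells, unnamed cluster 7), and 3 and 13 Cajal-Retzius-like cells were too few for the tests. Cycling markers were not confined to the cycling class: the 10 of them summed to 7029 and 5491 CPM (UMIs of a gene per 1000000 UMIs of the class and library) in cycling radial glia-like cells and to 4726 and 3139 CPM in radial glia-like cells. The 13 radial glia markers summed to 23076 and 27461 CPM in radial glia-like cells but to 3706 and 3411 CPM in the cycling class, close to the 3329 and 3454 CPM of intermediate progenitor-like cells. The cycling class is therefore called by its dividing cell markers, with Top2a and Ube2c among its leading genes, and its radial glia markers do not bear out the rest of its name. In it 9 immature GABAergic markers also reached 1191 and 955 CPM. The 8 intermediate progenitor markers summed to 898 and 1122 CPM in it, against 416 and 541 CPM in radial glia-like and 2171 and 2090 CPM in intermediate progenitor-like cells. The mature glutamatergic-like name is weakly based, since 1 of its clusters (138 of 279 cells) had 3 of 9 mature glutamatergic markers raised, and the list summed to 2077 and 1875 CPM in the class and to 1960 and 1474 CPM in mature GABAergic-like neurons. Unnamed cluster 7 held 3529 and 3188 CPM of 8 immature glutamatergic markers, as much as the class of that name (3255 and 3274 CPM). Red blood cell markers lay between 475 and 790 CPM in every class and serve as a reference for RNA that is free in the droplets. Of 13 barcodes present in both aliquots, 12 were kept in both, of which 10 fell in the same class, and 7 cells were called doublets. In the 951 cell aliquot, 6 microglia markers summed to 573 CPM in intermediate progenitor-like cells, from 360 UMIs in 3 cells, and 6 endothelial and mural markers summed to 224 CPM in radial glia-like cells, from 188 UMIs in 4 cells. In the 190 cell aliquot these sums were 0 and 16.6 CPM. Each cell with 3 or more UMIs of either list was left out in an added fit, in which all 62 member values called between classes stayed called.

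The 8 genes made up 2.89% ± 0.037 (SD, n = 2) of all Illumina UMIs and 3.99% of the isoform-assigned Nanopore UMIs. Tuba1a, with 126339 Illumina UMIs, ranked 2 among all genes, Tubb2b 5, Tubb5 10, Tubb3 65, Tuba1b 156, Tubb2a 237, Tubb4b 538 and Tuba1c, with 339 UMIs, 4155. A UMI counts a molecule once whatever its length, so these ranks are counts of captured molecules. Mature glutamatergic-like neurons had the highest tubulin share of all UMIs, 3.95% ± 0.24, and radial glia-like cells the lowest, 1.44% ± 0.35. The share was 1.66% ± 0.039 in intermediate progenitor-like cells, 1.92% ± 0.054 in the cycling class and 3.41% ± 0.13 in immature GABAergic-like neurons. The alpha genes held 47.6% ± 1.2 of the alpha and beta UMIs over all cells, with 43.0% ± 0.24 in immature and 50.7% ± 1.7 in mature glutamatergic-like neurons.

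**Figure D1:**
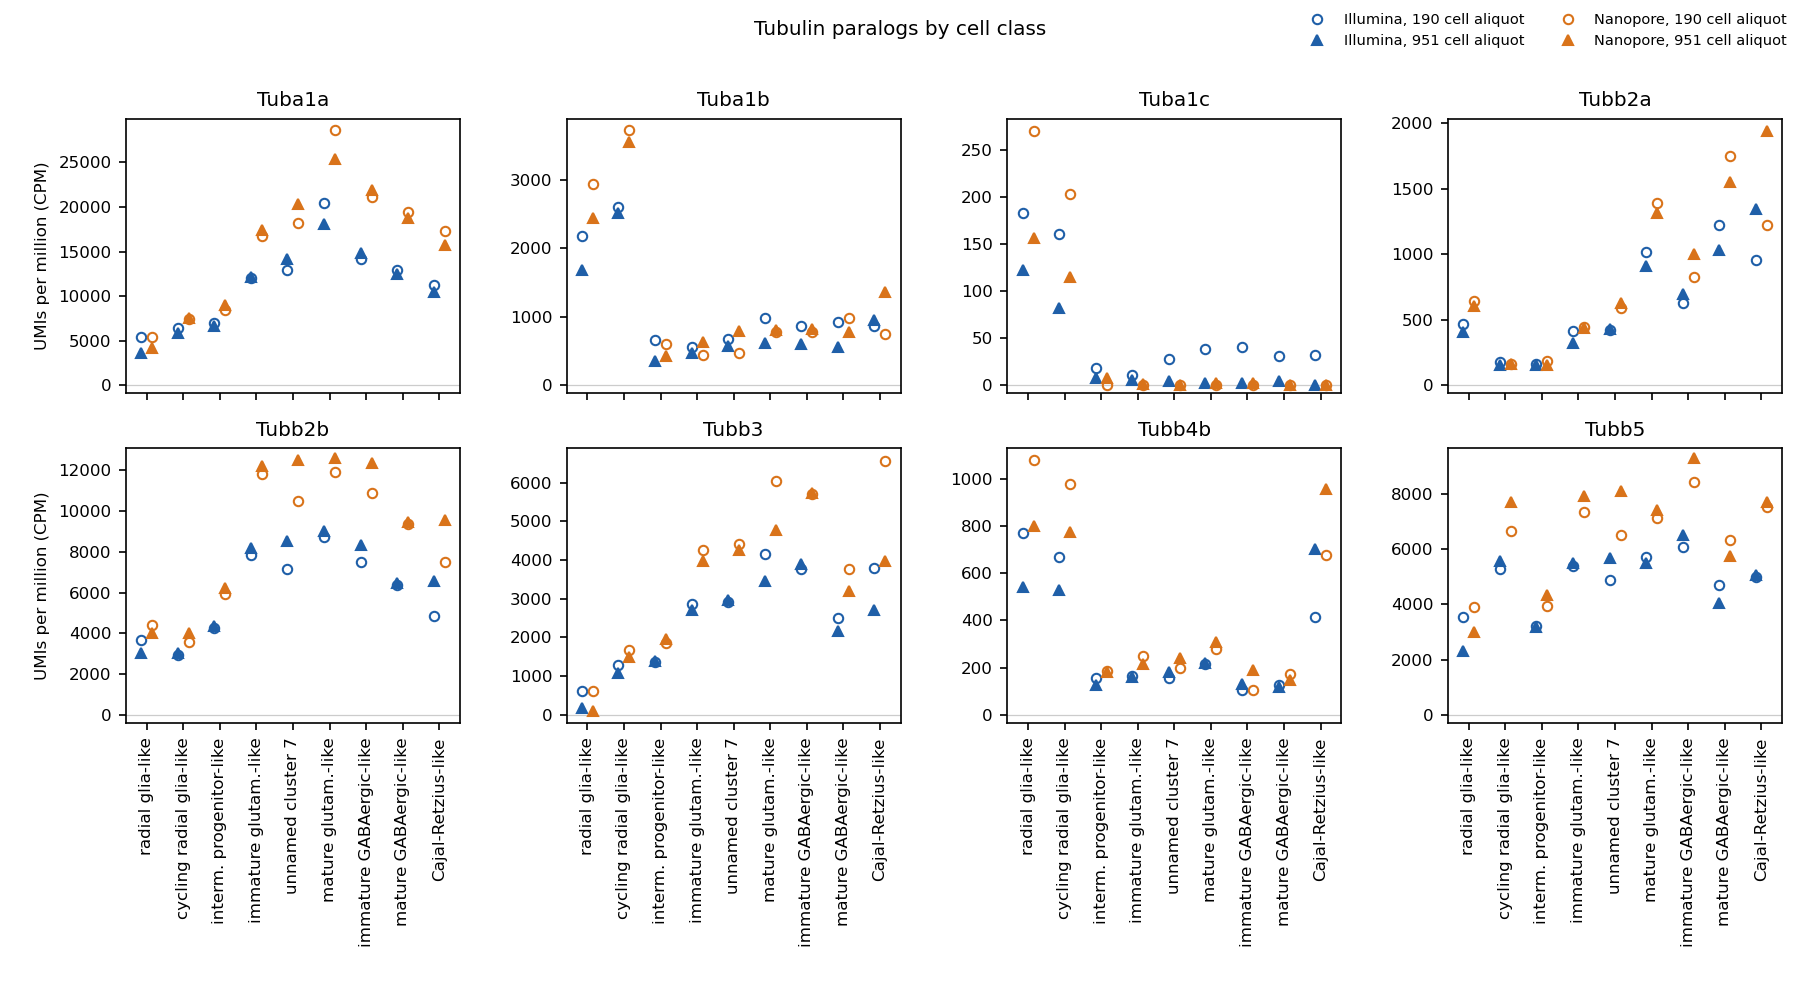
UMIs per 1000000 UMIs (CPM, linear axes from 0, a different range in each panel) of the 8 genes in 9 cell classes, with 1 point per aliquot and platform. Tuba1b, Tuba1c and Tubb4b are high in the radial glia-like and cycling classes, Tubb4b also in the few Cajal-Retzius-like cells, while Tuba1a, Tubb2b and Tubb3 are higher in the neuronal classes.

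Tuba1a, the main neuronal alpha-tubulin, measured 20408 and 18088 CPM (Illumina, 190 and 951 cell aliquot) in mature glutamatergic-like neurons. It lay at 14195 and 14852 CPM in immature GABAergic-like, 12951 and 12449 CPM in mature GABAergic-like and 12055 and 12139 CPM in immature glutamatergic-like neurons. Intermediate progenitor-like cells had 6998 and 6686 CPM, the cycling class 6398 and 5843 CPM and radial glia-like cells 5458 and 3612 CPM. Of the 8 pairs of neighbours in this order only unnamed cluster 7 and mature GABAergic-like neurons overlapped, and the classes spanned 4.70-fold.

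Tuba1b, the alpha-tubulin of many dividing cells, had another order. It measured 2608 and 2509 CPM in the cycling class and 2186 and 1679 CPM in radial glia-like cells. In the other classes it lay between 362 and 979 CPM, and most neighbours there overlapped. Tuba1c, the rarest of the genes, had 33 and 107 UMIs (183 and 123 CPM) in radial glia-like cells and 50 and 82 UMIs (161 and 82.7 CPM) in the cycling class, which overlapped. No other class exceeded 40.9 CPM. The highest of these other values came from the 190 cell aliquot, a point taken up with the platforms.

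Tubb2a and Tubb2b, almost the same in coding sequence, did not share their order. Tubb2b lay between 7150 and 9039 CPM in glutamatergic-like and immature GABAergic-like neurons and unnamed cluster 7, at 6346 and 6478 CPM in mature GABAergic-like neurons, and at 2953 and 3025 CPM in the cycling class. Tubb2a was highest in Cajal-Retzius-like cells (959 and 1348 CPM) and mature GABAergic-like neurons (1224 and 1030 CPM), which overlapped. It followed in mature glutamatergic-like neurons with 1019 and 908 CPM and was lowest in intermediate progenitor-like cells with 164 and 153 CPM. Radial glia-like cells had 466 and 404 CPM of Tubb2a, which overlapped the 412 and 319 CPM of immature glutamatergic-like neurons.

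Tubb3, the neuronal beta-tubulin, lay at 3778 and 3891 CPM in immature GABAergic-like and 4144 and 3445 CPM in mature glutamatergic-like neurons, which overlapped. Intermediate progenitor-like cells had 1359 and 1386 CPM and the cycling class 1288 and 1091 CPM. Radial glia-like cells were lowest, and their aliquots stood far apart, with 616 and 165 CPM. Tubb4b measured 771 and 541 CPM in radial glia-like and 670 and 527 CPM in cycling cells, which overlapped each other and the 415 and 702 CPM of Cajal-Retzius-like cells. It lay between 105 and 220 CPM in all other classes. Tubb5, the broadly expressed beta-tubulin, had the smallest span, 2.55-fold, from 6094 and 6501 CPM in immature GABAergic-like neurons to 3550 and 2311 CPM in radial glia-like cells.

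The composition of the alpha and beta pools in the radial glia-like and cycling classes differed from that of the other classes. Tuba1b held 29.5% ± 2.2 of the alpha UMIs in radial glia-like cells and 29.1% ± 0.91 in the cycling class (SD, n = 2). The share was 6.90% ± 2.5 in intermediate progenitor-like cells and between 3.93% and 7.70% in every other class. Tuba1c reached 2.31% ± 0.046 in radial glia-like and 1.37% ± 0.55 in cycling cells. Among beta UMIs, Tubb5 held 52.4% ± 1.9 in the cycling class, against 37.5% ± 2.4 in radial glia-like cells and 28.8% ± 0.072 in mature glutamatergic-like neurons. Tubb4b held 8.45% ± 0.10 in radial glia-like and 5.77% ± 0.96 in cycling cells, and between 0.627% and 1.55% in intermediate progenitor-like cells and the glutamatergic-like and GABAergic-like classes. Tubb2b held 28.8% ± 0.54 in the cycling class and between 36.1% and 47.8% elsewhere. The share of Tubb2a was 7.82% ± 0.56 in mature GABAergic-like neurons, 4.95% ± 0.28 in mature and 2.18% ± 0.41 in immature glutamatergic-like neurons.

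**Figure D2:**
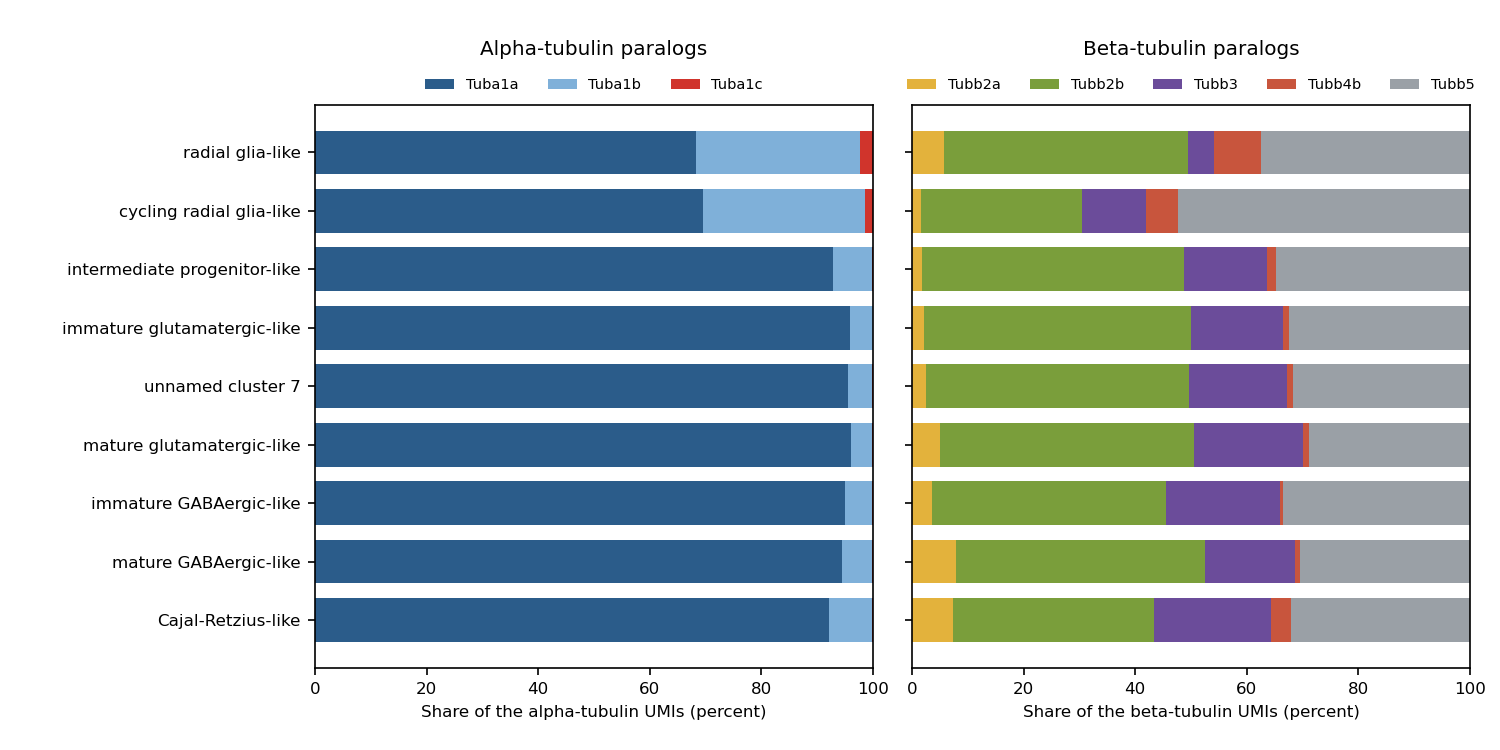
Share of each paralog in the alpha-tubulin UMIs (left) and the beta-tubulin UMIs (right) of each class, in percent, as the mean of the 2 aliquots (Illumina). Tuba1b takes 29.5% and 29.1% of the alpha UMIs in the radial glia-like and cycling classes and Tubb5 takes 52.4% of the beta UMIs in the cycling class.

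Mature glutamatergic-like neurons were compared with radial glia-like cells to ask how tubulin expression differs between the stem cells and a neuron that derives from them. All 8 genes were called, 5 higher and 3 lower in the neurons, on both platforms. The background was wide, since 32.9% of 8597 Illumina genes (16.6% higher and 16.3% lower) and 38.6% of 5101 Nanopore genes (17.2% higher and 21.3% lower) were called in this comparison (edgeR quasi-likelihood test on summed UMIs, Benjamini-Hochberg adjusted p under 0.05 over all genes). The Nanopore values come from the same cDNA molecules and are a second reading of them, not an independent test. Tubb3 rose by a log2 fold change of 3.43 ± 0.52 (standard error; edgeR adjusted p = 0.0016). Tuba1a rose by 2.14 ± 0.15 (edgeR adjusted p = 1.1e-16), and no aliquot of the neurons overlapped radial glia-like cells. Tubb2b rose by 1.46 ± 0.14, Tubb2a by 1.21 ± 0.19 and Tubb5 by 1.00 ± 0.15. Lower in the neurons were Tuba1b, by 1.23 ± 0.25 on the log2 scale (978.8 and 615 CPM against 2186 and 1679 CPM; edgeR adjusted p = 8.8e-04), and Tubb4b, by 1.52 ± 0.21 (214 and 220 CPM against 771 and 541 CPM). Tuba1c also was lower, from 140 to 29 UMIs, with an edgeR adjusted p = 0.045. On Illumina Tuba1c did not pass with DESeq2 (adjusted p = 0.12) or with no filter on low counts (edgeR adjusted p = 0.075). It did not pass either with tubulin genes kept in the clustering (edgeR adjusted p = 0.10). Its Illumina values in the neurons were 38.7 and 2.96 CPM, and on Nanopore it fell from 107 UMIs to 4. The 2 clusters that form the mature glutamatergic-like class, with Crym and Fezf2 and with Nefl and Mef2c among their leading genes, were close to each other, with Tuba1a at 17990 and 18206 CPM and Tubb3 at 3256 and 3669 CPM in the 951 cell aliquot.

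**Figure D3:**
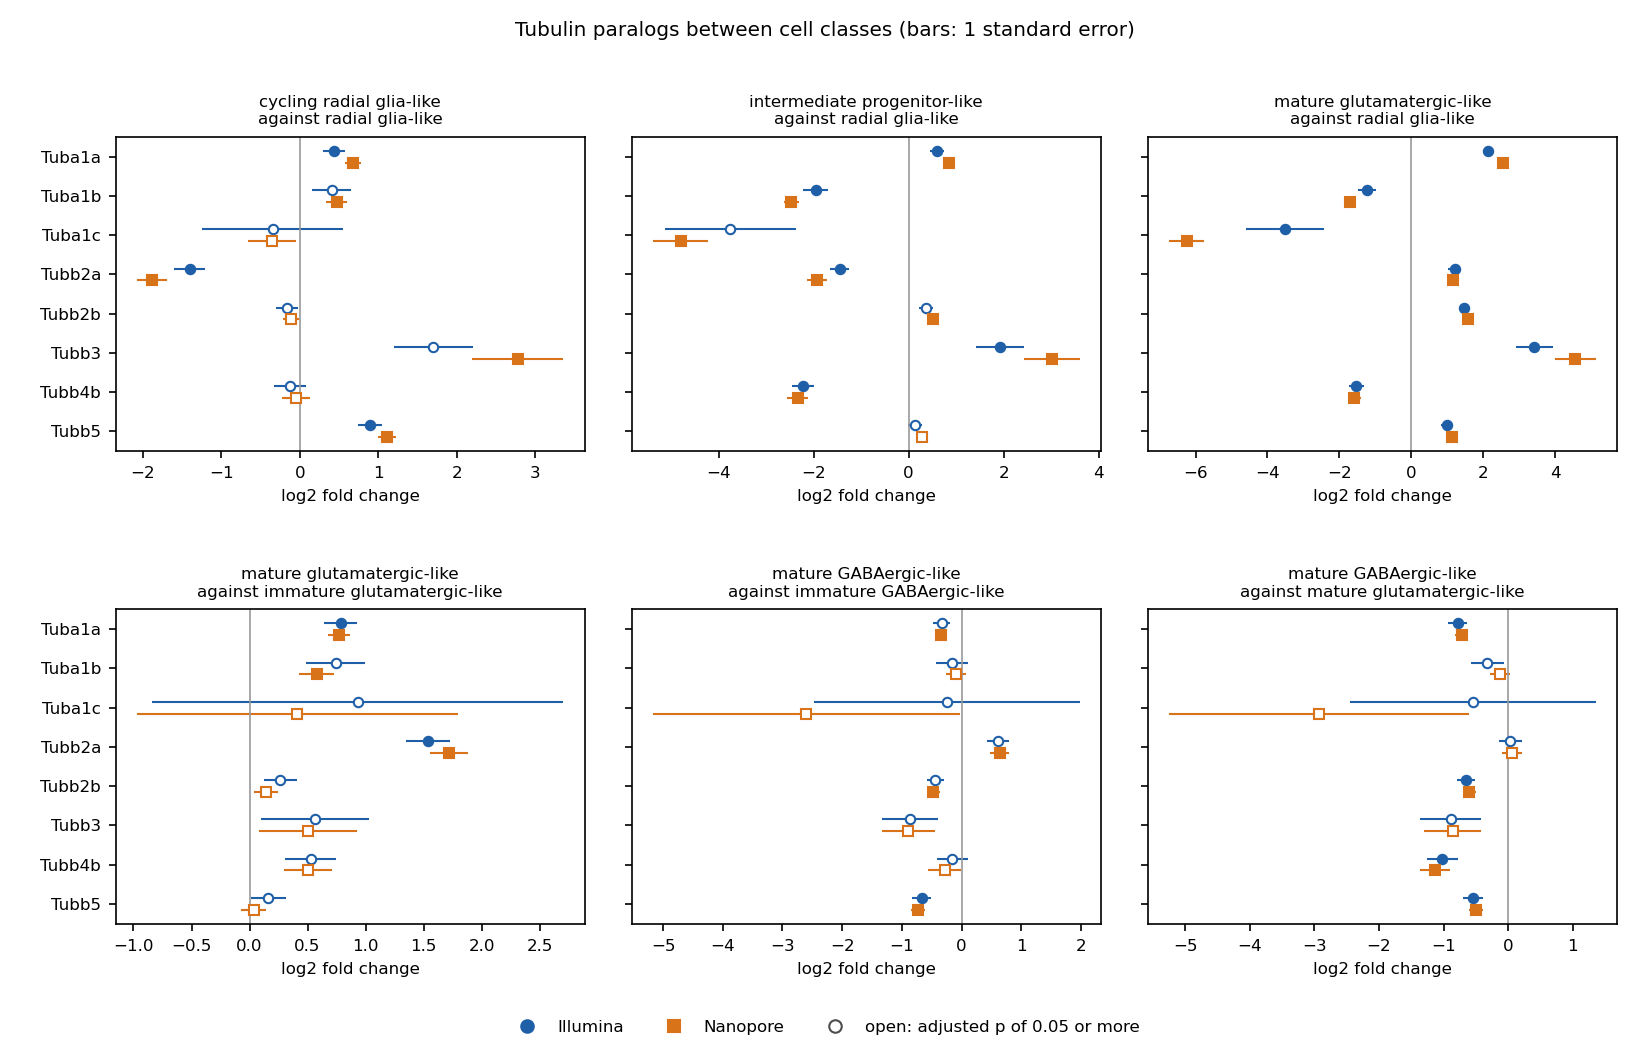
Log2 fold changes of the 8 genes in 6 comparisons of cell classes, with bars of 1 standard error, for Illumina (circles) and Nanopore (squares); filled symbols have an edgeR adjusted p under 0.05. All 8 genes are filled in mature glutamatergic-like against radial glia-like cells, and the bars of Tubb3 and Tuba1c are the widest.

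The cycling class was set against the same radial glia-like cells. Since these classes also differ in their radial glia, intermediate progenitor and immature GABAergic markers, cell division and cell type cannot be told apart here. Tubb5 was higher in the cycling class by 0.89 ± 0.15 (5297 and 5564 CPM against 3550 and 2311 CPM; edgeR adjusted p = 3.2e-05). Tubb2a was lower, by 1.40 ± 0.20 on the log2 scale, with 177 and 153 CPM against 466 and 404 CPM (edgeR adjusted p = 7.1e-07). Tuba1a was higher by 0.43 ± 0.14 (edgeR adjusted p = 0.035). It did not pass with the aliquot as a block (edgeR adjusted p = 0.052), with other size factors (0.081) or with DESeq2 (adjusted p = 0.18). The main fit called these 3 of the 8 genes, where 11.4% of all genes were called (4 of the 8 and 19.4% with the block). Nanopore called 5, with a background of 15.5%: the same 3, Tuba1b (0.47 ± 0.13) and Tubb3 (2.77 ± 0.58). There Tuba1b did not pass with DESeq2 (adjusted p = 0.21) or with no filter on low counts (edgeR adjusted p = 0.084). Tuba1b and Tubb4b set both classes apart from glutamatergic-like and GABAergic-like neurons. Between cycling and radial glia-like cells they differed on Illumina by 0.41 ± 0.25 and -0.12 ± 0.21, below the threshold. With the aliquot as a block the Illumina test also called Tuba1b (adjusted p = 2.9e-04) and Tubb3 (adjusted p = 0.017). Tubb3 passed on Illumina with DESeq2 as well (1.65, adjusted p = 0.017). It also passed with no filter on low counts (1.83, edgeR adjusted p = 1.1e-10) and with tubulin genes kept in the clustering (1.70, 0.027).

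The Tubb3 values of radial glia-like cells rested on few cells. Of 254 Illumina UMIs in 70 cells, 122 came from 3 called doublets with 86, 30 and 6 UMIs. The other 67 cells had a median of 1 UMI and at most 12, and 17 of them had none. Without the called doublets the class measured 165 and 132 CPM on Illumina, against 616 and 165 CPM with them. On Nanopore it measured 49.7 CPM (25 UMIs) in 56 cells of the 951 cell aliquot, and 0 UMIs in 11 cells of the other, which allows up to 45.7 CPM. The cycling class then exceeded radial glia-like cells in Tubb3 by 3.19 (edgeR adjusted p = 6.1e-19), against 1.70 ± 0.50 with all cells (adjusted p = 0.079). The difference of mature glutamatergic-like neurons from radial glia-like cells grew to 4.85 (edgeR adjusted p = 7.6e-26). The same 3 cells held 133 of the 1853 Tuba1b UMIs and 21 of the 609 Tubb4b UMIs of the class. Leaving out all 7 called doublets reversed no called member in the comparisons with radial glia-like cells. The calls it added for intermediate progenitor-like cells are given with that class.

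Intermediate progenitor-like cells, which arise from radial glia and give rise to glutamatergic neurons, differed from radial glia-like cells in 5 of the 8 genes on Illumina and 7 on Nanopore, with 14.9% and 19.2% of all genes called. Tuba1b was lower by 1.95 ± 0.27 on the log2 scale (667 and 362 CPM against 2186 and 1679 CPM; edgeR adjusted p = 3.8e-05). Tubb4b was lower by 2.21 ± 0.23 (157 and 127 CPM against 771 and 541 CPM) and Tubb2a by 1.45 ± 0.20. Tuba1a was higher by 0.59 ± 0.14 (edgeR adjusted p = 0.0018) and Tubb3 by 1.92 ± 0.50 (edgeR adjusted p = 0.045). Tuba1b and Tubb4b were as low in this class as in glutamatergic-like and GABAergic-like neurons. Tuba1a was at 6998 and 6686 CPM, well under the values of these neurons. Nanopore also called Tubb2b (0.52 ± 0.11) and Tuba1c, of which 3 UMIs were counted in 88 cells. With the aliquot as a block the Illumina test called both as well (edgeR adjusted p = 2.5e-04 and 5.5e-04), and the Nanopore test added Tubb5 (edgeR adjusted p = 0.0075), with 21.9% and 24% of all genes called. Without the cells that held microglia or endothelial markers, Tubb2b also passed on Illumina (0.37, edgeR adjusted p = 0.0207). It passed there too with other size factors (0.33, edgeR adjusted p = 0.0195) and without called doublets (0.56, 0.0038). Without called doublets Tubb5 passed on Illumina (0.42, edgeR adjusted p = 0.039) and on Nanopore (0.54, 8.5e-04). On Nanopore Tubb5 also passed without shared barcodes (0.37, edgeR adjusted p = 0.030). Tubb3 did not pass on Illumina without the cells of shared barcodes (edgeR adjusted p = 0.06) or with other size factors (0.053). On Nanopore Tubb2b did not pass with no filter on low counts (edgeR adjusted p = 0.072).

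Mature were compared with immature neurons of each type, and these comparisons are called maturation here. The immature GABAergic-like class had Ebf1 and Isl1 among its leading genes, and the mature class had Sst and Maf. By these leading genes the GABAergic-like classes differ in type of neuron, and the design cannot tell type from maturation. For them maturation is only a name for the pair of classes. In glutamatergic-like neurons Tubb2a rose by 1.53 ± 0.19, from 412 and 319 to 1019 and 908 CPM (edgeR adjusted p = 1.1e-07). Tuba1a rose by 0.79 ± 0.14 (edgeR adjusted p = 1.7e-04). These were 2 of the 8 genes, with 4.15% of all genes called, and neither overlapped between the classes in any aliquot. Nanopore called both, and Tuba1b with 0.58 ± 0.15 (edgeR adjusted p = 0.0076), with a background of 6.1%. There Tuba1b did not pass with DESeq2 (adjusted p = 0.21) or with no filter on low counts (edgeR adjusted p = 0.084). On Illumina Tuba1b passed with no filter (edgeR adjusted p = 0.035). With the aliquot as a block the Illumina test called 5 genes, adding Tuba1b (adjusted p = 3.3e-06), Tubb2b (0.018) and Tubb4b (0.014), and the Nanopore test added Tubb4b (0.018), while 11.7% and 11.9% of all genes were called. Tubb5 was at 5378 and 5503 CPM in immature and 5727 and 5501 CPM in mature neurons, which overlapped. Without the called doublets Tubb3 was called as well, on Illumina (0.52, edgeR adjusted p = 0.044) and on Nanopore (0.46, 0.026). Median Illumina UMIs per cell were 7248 and 7011.5 in immature and 13128 and 11273 in mature glutamatergic-like neurons. The part of depth in these results was not tested.

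In GABAergic-like neurons Tubb5 was lower in the mature class, by 0.67 ± 0.15 on the log2 scale (edgeR adjusted p = 0.0052). Tubb5 measured 6094 and 6501 CPM in immature and 4708 and 4065 CPM in mature neurons. It was the only member that the Illumina test called, with 2.54% of all genes called, and DESeq2 called 0 members (Tubb5 adjusted p = 0.0594). Nanopore called 4 with a background of 3.18%: Tubb5 (-0.73 ± 0.11), Tubb2b (-0.47 ± 0.10), Tuba1a (-0.34 ± 0.10) and Tubb2a (0.64 ± 0.16). Tuba1a did not pass there with DESeq2 (adjusted p = 0.83), other size factors (edgeR adjusted p = 0.063) or no filter on low counts (0.60). Nor did it with tubulin genes kept in the clustering (edgeR adjusted p = 0.0503), without called doublets (0.0996) or without shared barcodes (0.137). Tubb2a and Tubb2b did not pass there with DESeq2 or with no filter. On Illumina Tubb2a measured 626 and 694 CPM in immature and 1224 and 1030 CPM in mature neurons (0.61 ± 0.19, edgeR adjusted p = 0.069). With the aliquot as a block 3 genes were called, Tubb2a (adjusted p = 2.1e-04), Tubb2b (4.8e-05) and Tubb5, with 5.62% of all genes called. Tubb2a and Tubb2b also passed without the cells that held microglia or endothelial markers (edgeR adjusted p = 0.0336 and 0.0248). Without the called doublets Tubb3 was also called, with a log2 fold change of -0.86 (edgeR adjusted p = 3.4e-04), although no doublet was in these 2 classes; the fit shares its estimate of the spread with radial glia-like cells.

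The difference between the 2 changes was tested in the same fit, as glutamatergic-like minus GABAergic-like. It carries the same limit, since the GABAergic-like classes differ in type of neuron by their leading genes, and maturation and cell type cannot be told apart. On Illumina 4 of the 8 genes were called where 2.12% of all genes were: Tuba1a (1.12 ± 0.20, edgeR adjusted p = 2.1e-04), Tubb5 (0.83 ± 0.21, 0.023), Tubb2b (0.71 ± 0.20, 0.044) and Tubb2a (0.92 ± 0.26, 0.0499). Nanopore called the same 4, with 2.71% of all genes called. Tubb2a measured higher in the mature class of both types, by more in the glutamatergic-like type, while Tuba1a measured higher in mature glutamatergic-like and lower in mature GABAergic-like neurons than in their immature classes. The lower Tuba1a of mature GABAergic-like neurons was not called on Illumina. Tubb2b gave the same directions as Tuba1a on Illumina, but its glutamatergic-like classes overlapped on Nanopore (11800 to 12198 CPM in immature and 11920 to 12606 CPM in mature neurons). Tubb5 was lower in mature GABAergic-like neurons and overlapped between the glutamatergic-like classes on both platforms. DESeq2 called 1 of the 8, Tuba1a, on each platform, and the genes it called in all are given with the processing. With the aliquot as a block Tuba1b passed too, on Illumina (edgeR adjusted p = 2.9e-04) and on Nanopore (0.0085), with 5.7% and 5.29% of all genes called. With the cells of shared barcodes left out, 1 gene, Tuba1a, passed on Illumina. Without the called doublets Tubb2a and Tubb2b did not pass on Illumina (edgeR adjusted p = 0.09 and 0.077). That test added Tubb3 (1.38, edgeR adjusted p = 4.5e-05), with 2489 and 2168 CPM in mature against 3778 and 3891 CPM in immature GABAergic-like neurons and 4144 and 3445 against 2855 and 2699 CPM in glutamatergic-like neurons.

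Mature neurons of both types were compared directly. The GABAergic-like class had less Tuba1a (-0.78 ± 0.14, edgeR adjusted p = 5.9e-05), Tubb2b (-0.65 ± 0.14), Tubb5 (-0.55 ± 0.15) and Tubb4b (-1.02 ± 0.24, edgeR adjusted p = 0.0022) than the glutamatergic-like class. For Tubb4b the values were 124 and 116 CPM against 214 and 220 CPM. Both platforms called these 4, with 8.68% and 10.4% of all genes called. DESeq2 called 2 of them, Tuba1a and Tubb2b, on each, and the genes it called in all are given with the processing. Tubb2a differed by 0.033 ± 0.18 and Tuba1b by -0.32 ± 0.26, below the threshold. Without the called doublets Tubb3 was called as well (-0.84, edgeR adjusted p = 1.2e-04). The cells differed in depth, with median Illumina UMIs per cell of 5817 and 4858 in mature GABAergic-like and 13128 and 11273 in mature glutamatergic-like neurons, and the part of depth in the result was not tested.

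In single cells the Tuba1b share of the alpha pool varied most in the radial glia-like and cycling classes. Of 114 cycling cells with at least 20 alpha UMIs, the median share was 30.5%, from 3.03% to 71.6%, and Tuba1b outnumbered the other alpha genes in 14. Radial glia-like cells had a median of 26.1% over 67 cells, from 0 to 62.3%, with 4 over 50%. Intermediate progenitor-like cells had a median of 4.79% and a highest value of 32.6%. Mature glutamatergic-like neurons had a median of 3.55% over 276 cells and no cell above 17.3%. No cell of these 2 classes or of the other classes passed 50%. Shares from as few as 20 UMIs carry counting error, which is wider for a share near 30.5% than for one near 3.55%. The part of counting error in the spread was not tested. Nanopore gave medians of 34.6% and 36.8% in cycling and radial glia-like cells and 2.86% in mature glutamatergic-like neurons. Tubb5 held over 50% of the beta UMIs in 71 of 116 cycling cells, against 5 of 68 radial glia-like cells, 4 of 79 intermediate progenitor-like cells and at most 3 cells in any other class. With called doublets left out, Tuba1b passed 50% in 14 of 111 cycling and 4 of 64 radial glia-like cells, and Tubb5 in 71 of 113 and 4 of 65.

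**Figure D4:**
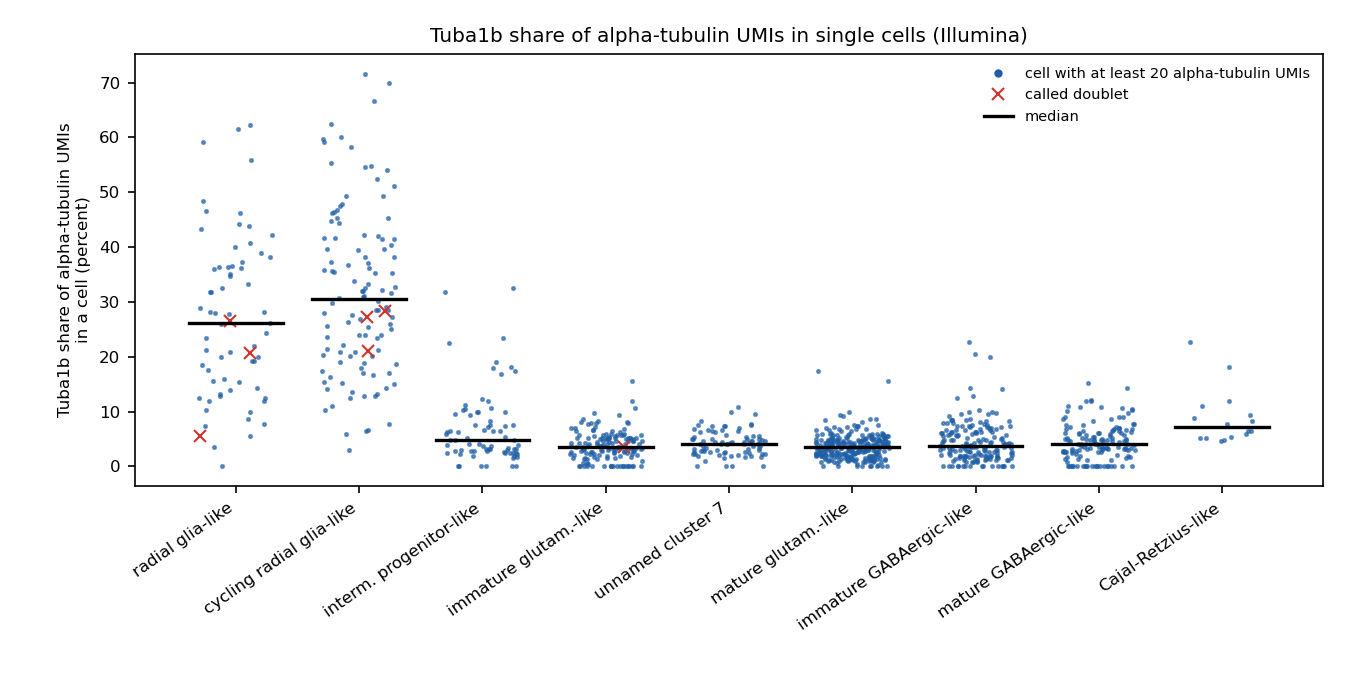
Tuba1b share of the alpha-tubulin UMIs (percent, Illumina) in each cell with at least 20 such UMIs, by class, with the median as a line and called doublets as crosses. The medians are 26.1% in radial glia-like and 30.5% in cycling cells and at most 7.11% in the other classes.

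To compare detection at equal depth, the UMIs of every cell were thinned to 2000, and 0 cells had to be left out. Tubb3 was then detected in 27.1% of 70 radial glia-like cells (75.7% unthinned) and in 99.6% of 279 mature glutamatergic-like neurons (100% unthinned). The hemoglobin genes Hba-a1 and Hbb-bs, which neither class makes, were detected in 24.3% and 48.6% of the former and 24.7% and 44.8% of the latter at the same depth. The Tubb3 share in radial glia-like cells and the Tubb4b share in mature glutamatergic-like neurons (33.0%) lay within that range, as did Tubb2a in radial glia-like cells (44.3%), and no expression is read from these shares. Tubb4b in radial glia-like cells (58.6%) and Tuba1b in both classes (87.1% and 69.2%) lay above it. So did Tubb2a in mature glutamatergic-like neurons (81.0%). Tuba1c lay below it, with 7.14% in radial glia-like cells and 1.08% in mature glutamatergic-like neurons. Free tubulin RNA was not measured and may differ from that of hemoglobin, so a share above the range is not read as expression either. In the 67 radial glia-like cells that were not called doublets, Tubb3 was detected in 25.4% and Tubb2a in 43.3%. Median depth before thinning was 10637 and 10717 UMIs in radial glia-like cells of the 2 aliquots.

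Members varied together over cells to different degrees. Over all 1121 cells, on the log of counts scaled to 10000 UMIs, Pearson's r was 0.808 for Tuba1a with Tubb2b and 0.822 for Tuba1a with Tubb3. It was -0.039 for Tuba1a with Tuba1b, and 0.296 for Tuba1b with Tubb4b. These cells share 2 libraries and differ in depth and class, so the values describe them and carry no test. Within classes Tuba1a with Tubb3 ranged from 0.427 (70 radial glia-like cells) to 0.853 (88 intermediate progenitor-like cells). Tuba1b with Tubb4b reached 0.538 in radial glia-like cells and 0.103 in 117 cycling cells, and Tuba1b with Tubb5 reached 0.680 and 0.493. In radial glia-like cells the value of Tuba1a with Tubb3 rested on the 3 called doublets, without which it was 0.177 (67 cells), while Tuba1b with Tubb4b was 0.546. Without called doublets Tuba1a with Tuba1b was -0.035 over 1114 cells. Within classes other than the Cajal-Retzius-like one it ranged from 0.053 (176 immature GABAergic-like neurons) to 0.449 (88 intermediate progenitor-like cells).

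The Nanopore reads showed which transcripts carry these counts. Tuba1a (103021 UMIs), Tuba1c (221) and Tubb2a (4994) were counted in 1 transcript each, and for the other genes the main protein-coding transcript held over 99% of the UMIs. Tubb5 had the most varied set: 40127 of 40426 UMIs in Tubb5-201, 261 in Tubb5-204, annotated as a retained intron (0.646%, exact binomial 95% interval 0.570% to 0.729%), and 37 in Tubb5-202. Tubb3-202, a protein-coding transcript that ends before the 3′ end of Tubb3-201, had 41 of 21119 UMIs (0.194%), and Tubb4b-202 had 7 of 2284. Intervals cover counting error only. The share of Tubb5 UMIs outside Tubb5-201 lay between 0 and 1.07% in the 14 sums of the tested classes. Tubb5 was the only member with enough UMIs in 2 isoforms for the test of isoform usage, and it was called in none of the 7 contrasts (edgeR diffSpliceDGE, smallest adjusted p = 0.57), for which 665 genes were tested. The share of these genes that was called was 16.1% for mature glutamatergic-like against radial glia-like cells, 3.61% for the cycling and 3.91% for the intermediate progenitor-like class, 1.65% and 0.752% for glutamatergic-like and GABAergic-like maturation, 1.5% for mature neurons and 0 for the maturation difference.

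Nanopore held between 50.8% and 79.5% of the Illumina UMIs of the 8 genes in the 190 cell aliquot and between 73.5% and 84.1% in the 951 cell aliquot. All genes together gave 54.9% and 58.9%, and the median gene with at least 100 Illumina UMIs gave 64.2% and 55.5%. After scaling to the library, 6 of the 8 genes were called higher on Nanopore, where 50.5% of all genes were called, 20.2% higher and 30.3% lower. The log2 fold changes were 0.60 ± 0.067 for Tuba1a, 0.64 ± 0.079 for Tubb3, 0.62 ± 0.11 for Tubb2b, 0.62 ± 0.13 for Tubb4b and 0.54 ± 0.082 for Tubb5. Tuba1b (0.45 ± 0.16, edgeR adjusted p = 0.059) and Tuba1c (0.14 ± 0.54, edgeR adjusted p = 0.85) did not pass, and with the aliquot as a block all 8 did (adjusted p = 0.0013 and 0.042 for these 2), as did 70.7% of all genes.

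Tuba1b and Tuba1c differed between the aliquots in neurons. In the 4 named neuronal classes of the 190 cell aliquot, Illumina counted 868 UMIs of Tuba1b and Nanopore 401 (46.2%). In the 951 cell aliquot it was 2938 and 2296 (78.1%). For Tuba1c the neurons gave 33 Illumina and 0 Nanopore UMIs in the 190 cell aliquot, where 0 allows up to 5.56 CPM, and 18 and 6 UMIs in the 951 cell aliquot. In the radial glia-like and cycling classes Nanopore held 79.2% and 85.3% of the Tuba1b and 75.9% and 78.8% of the Tuba1c UMIs. Illumina levels in neurons were 881 against 581 CPM for Tuba1b and 33.5 against 3.56 CPM for Tuba1c in the 190 and the 951 cell aliquot, whereas the Nanopore levels of Tuba1b were 744 and 772 CPM. Tuba4a, an alpha gene outside the 8, also differed over all cells, with 37.0 and 5.18 CPM on Illumina and 10.1 and 5.93 CPM on Nanopore. In each aliquot alone, with no test, mature glutamatergic-like against radial glia-like cells gave -1.42 and -1.09 for Tuba1b and -4.68 and -1.97 for Tuba1c in the 951 and the 190 cell aliquot.

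**Figure D5:**
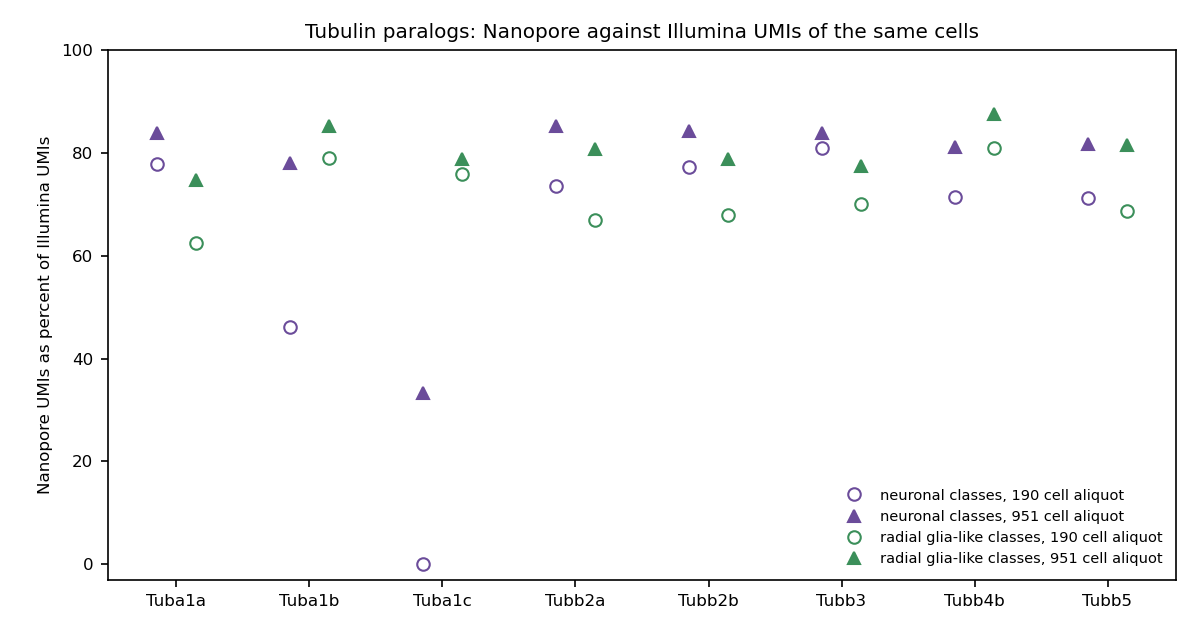
Nanopore UMIs as a percent of the Illumina UMIs of the same cells, for each gene in the 4 named neuronal classes and in the radial glia-like and cycling classes of each aliquot. In neurons of the 190 cell aliquot Tuba1b stands at 46.2% and Tuba1c at 0, below the other 6 genes.

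The other tubulin genes of the matrix, 17 with symbols starting in Tuba, Tubb, Tubg, Tubd or Tube, were far rarer. Tubb4a, a beta gene of mature neurons and myelinating cells, had 1004 Illumina UMIs and rose from 5.55 and 15.0 CPM in radial glia-like cells to 133 and 158 CPM in mature glutamatergic-like neurons (3.53 ± 0.35, edgeR adjusted p = 1.3e-11). Tubg1, the gamma-tubulin that nucleates microtubules, had 724 UMIs and was higher in the cycling class, with 129 and 146 CPM against 66.6 and 52.9 CPM (1.30 ± 0.27, edgeR adjusted p = 6.4e-04). Its relative Tubg2 (137 UMIs) rose in mature glutamatergic-like neurons by 2.24 ± 0.78, from 0 and 4.60 to 11.1 and 20.7 CPM. Tuba4a had 110 UMIs, and the gamma complex genes Tubgcp2, Tubgcp3, Tubgcp4 and Tubgcp5 had 331, 148, 199 and 135. Among 10 tested genes of the gamma-tubulin ring complex, Tubg2 rose and Nedd1, which recruits the complex, fell (-2.98 ± 0.87; 0 and 2.59 against 11.1 and 20.7 CPM) in mature glutamatergic-like against radial glia-like cells, 2 of 10 where 32.9% of all genes were called. In radial glia-like cells 3 UMIs make 16.6 and 3.45 CPM in the 190 and the 951 cell aliquot. Tubb4a, Tubg2 and Nedd1 lay below 3 UMIs in that class of the 190 cell aliquot, so these changes rest on few UMIs.

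Of 21 tested chaperones and cofactors that fold tubulin, 4 rose and 0 fell in mature glutamatergic-like against radial glia-like cells on Illumina, with 16.6% of all genes called higher. They included Pfdn4, a prefoldin subunit (1.08 ± 0.24), and Tbcb, an alpha-tubulin cofactor (0.97 ± 0.24), and the median log2 fold change was 0.21 against 0.0016 over all genes. None was called in cycling against radial glia-like cells, where 11.4% of all genes were, while 3 were higher and 1 lower in intermediate progenitor-like cells (14.9% of all genes) and 2 lower in mature GABAergic-like than in mature glutamatergic-like neurons (8.68% of all genes). Of 12 tested enzymes that modify tubulin, 7 rose and 0 fell in the same neurons, with a median of 1.35. Ttll7, a polyglutamylase of beta-tubulin, rose by 3.21 ± 0.71 (0 and 3.45 to 12.9 and 33.7 CPM) and Vash2, a carboxypeptidase that removes the tyrosine of alpha-tubulin, by 2.68 ± 0.51 (11.1 and 8.05 to 66.4 and 47.0 CPM). Both lay below 3 UMIs in radial glia-like cells of the 190 cell aliquot, and Ttll7 had 3 UMIs in those of the 951 cell aliquot. In the cycling class Atat1, the alpha-tubulin acetyltransferase, was higher (0.78 ± 0.24) and Sirt2, a deacetylase, lower (-0.84 ± 0.25) than in radial glia-like cells. In intermediate progenitor-like cells 2 enzymes were higher, and no gene of the cofactor, enzyme or gamma complex lists was called on Illumina in either maturation comparison or in their difference. Of these lists, 1 enzyme was among the 2000 genes that defined the cell groups, and it is not named here.

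The genes with the most similar pattern were sought over the 14 sums per aliquot and class, among 3004 genes, as Pearson's r on log2 of CPM plus 10. Tuba1a was closest to Stmn3 (0.975) and Tmsb10 (0.974), Tubb2b to Sptan1 (0.971) and Stmn4 (0.966), and Tubb3 to Hn1 (0.960) and Stmn1 (0.957). Stmn1, Stmn3 and Stmn4 encode stathmins, which bind tubulin dimers. Tuba1b was closest to Rfc2 (0.957), a DNA replication factor, Tuba1c to Cdc20 (0.929) and Cdca8 (0.928), which act in mitosis, and Tubb4b to Lsm2 (0.957). Tubb2a was closest to Ssbp2 (0.956) and Zfp428 (0.923) and Tubb5 to Shtn1 (0.907) and Pak3 (0.895). Between members, r was 0.941 for Tuba1a with Tubb2b, 0.928 for Tuba1b with Tuba1c and -0.54 for Tuba1a with Tuba1b.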

How the data were processed

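The authors deposited raw UMI counts for each aliquot. Illumina reads were counted per gene with Cell Ranger v2.0 on mm10. Nanopore reads were mapped with minimap2, joined to cell barcodes and UMIs with the Illumina data as a guide, reduced to a consensus per UMI and assigned to Gencode vM18 isoforms by exon structure. Nanopore gene values are sums over those isoforms, so UMIs with no assigned isoform are not in them.

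Cells with at least 1400 Illumina genes were kept and clustered after the study's settings with Seurat 5.3.0 (counts scaled to 10000, 2000 variable genes, canonical correlation of both aliquots, 11 dimensions, resolution 0.8), leaving out all genes with symbols in Tuba, Tubb, Tubg, Tubd and Tube. A cluster was named from a marker list with at least 3 raised markers. The list also needed a lead of 0.2 in mean log2 lift over the next list with that many raised. Its markers among the 10 leading genes had to be no fewer than those of other lists. Unnamed cluster 7 had 5 of 8 immature glutamatergic markers raised, but 0 of them and 1 of other lists among its leading genes. Doublets were called with Scrublet in scanpy 1.11.5 and kept. Class names were rebuilt here and may differ from those of the study. Counts of a class were summed within an aliquot where both aliquots held 5 or more of its cells, which left 7 classes. The 14 sums were fitted in edgeR 4.0.16 (TMM, filterByExpr, robust quasi-likelihood test), with p-values adjusted by Benjamini-Hochberg over all genes tested and a threshold of 0.05. Platforms were compared with the same test on sums over all cells. Isoform usage was tested with diffSpliceDGE. Simulated counts were run through the platform test, the Illumina class comparisons, a Nanopore class comparison and an isoform contrast. The maturation difference, the block fits and DESeq2 were not simulated, and the simulated sums held no aliquot pairing. CPM are UMIs per 1000000 UMIs of the class or library.

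The genes given with values were the 8 members, other tubulin genes with at least 100 UMIs, and lists of folding cofactors, modifying enzymes and gamma-tubulin ring genes, of which the most strongly called are named. Members and lists were chosen with earlier results of these data known. The aliquot number pairs the libraries, since both platforms read the same cDNA of an aliquot. The deviations of the platforms in the same aliquot had a correlation of 0.693, and those of classes in the same aliquot had a median of 0.436 (0.322 to 0.603, 21 pairs). Fits with the aliquot as a block were therefore run beside the unblocked ones. Other alternatives were DESeq2 1.42.0, other size factors, no filter on low counts, tubulin genes kept in the clustering, called doublets, shared barcodes or cells with 3 or more UMIs of microglia or of endothelial and mural markers left out, each aliquot alone, all barcodes, and other thinning. The alternatives without shared barcodes and without cells holding other markers, the single-cell values without doublets, and the contrast of both maturation changes were added after the data were seen. Motifs and windows were counted with Biopython 1.88. Some sequences and a marker gene are not reported here.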

Additional observations from a re-analysis of the deposited data

Results flagged for a closer look

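The log2 difference between mature and immature classes was unlike in the glutamatergic-like and GABAergic-like types for 4 members on both platforms. This was a test of the difference itself (edgeR, glutamatergic-like minus GABAergic-like, on 2 technical aliquots). The mature and immature GABAergic-like classes differ in type of neuron by their leading genes, so the test does not separate maturation from cell type. Tuba1a differed by 1.12 on Illumina and 1.11 on Nanopore, and Tubb2a by 0.92 and 1.08. Tubb5 differed by 0.83 and 0.77, and Tubb2b by 0.71 and 0.61. With DESeq2 only Tuba1a was called on each platform. With no filter on low counts, Tuba1a was the only one of the 4 called on Illumina, where Tubb3 was added. On Nanopore Tuba1a and Tubb2a were called with no filter. Without shared barcodes only Tuba1a was called on Illumina. Without called doublets Tubb2a and Tubb2b did not pass on Illumina. In the main fit 2.12% of all genes tested were called on Illumina and 2.71% on Nanopore. The shares with no filter, without shared barcodes and without called doublets are not given. Both aliquots gave the same direction for each of the 4 genes, which were called on these same aliquots, so this is no separate support. No group held 4 or more samples, so no sample could be tested for standing apart from its group.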

How the results depend on the processing

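Of the 68 member values called in the comparisons, none reversed under any alternative that was run, 67 stayed called with the aliquot as a replicate block, 65 with other size factors, 63 without shared barcodes, 56 with no filter and 50 with DESeq2. Without called doublets 58 of 62 stayed called and with tubulin genes kept in the clustering 48 of 50, and without cells that held microglia or endothelial and mural markers 62 of 62. Leaving out the 190 cell aliquot kept 52 of 68 values within the fitted spread and moved 16, and leaving out the 951 cell aliquot kept 53 and moved 15. The cause of these shifts was not tested.
With DESeq2 fewer genes were called. On Illumina the counts were 289 of 977 (cycling against radial glia-like), 554 of 1280 (intermediate progenitor-like against radial glia-like), 1550 of 2828 (mature glutamatergic-like against radial glia-like), 100 of 357 and 78 of 218 (maturation, glutamatergic-like and GABAergic-like), 311 of 746 (mature GABAergic-like against mature glutamatergic-like) and 68 of 182 (maturation difference). On Nanopore they were 194 of 791, 343 of 979, 941 of 1967, 74 of 311, 53 of 162, 154 of 531 and 34 of 138 in the same order, and 3071 of 4976 between platforms. These pairs give counts only, not shared genes. Members called fell with DESeq2 from 4 to 1 (maturation difference, both platforms), from 4 to 2 (mature GABAergic-like against mature glutamatergic-like, both platforms), from 1 to 0 on Illumina and from 4 to 1 on Nanopore (GABAergic-like maturation). Where DESeq2 called 0, edgeR called Tubb5.
The aliquot pairing, as a replicate block, raised the genes called on Illumina to 1666 (cycling), 1005 and 483 (maturation), 1245 (mature neurons) and 490 (maturation difference), and on Nanopore to 607, 294 and 270 for the maturation comparisons and their difference. Members called rose to 5 in glutamatergic-like and 3 in GABAergic-like maturation on Illumina. For isoform usage the block gave 41, 46, 35, 12, 17 and 1 genes, against 24, 26, 11, 5, 10 and 0 (cycling, intermediate progenitor-like, both maturations, mature neurons, maturation difference). Beyond the calls given with the results, the block changed no other member call on Illumina.
GABAergic-like maturation on Illumina had 3 members called with other size factors, 3 with tubulin genes kept in the clustering, 3 without cells that held microglia or endothelial and mural markers, 2 with no filter and 2 without doublets. With no filter the maturation difference had 2 members called on each platform, Tuba1a and Tubb3 on Illumina and Tuba1a and Tubb2a on Nanopore. Under the same setting Nanopore GABAergic-like maturation had 1. Without shared barcodes the Illumina maturation difference had 1. The genes called in all under these settings are not given, so these member counts have no background beside them. With no filter isoform usage called 17, 0, 1 and 179 genes (intermediate progenitor-like, GABAergic-like and glutamatergic-like maturation, mature glutamatergic-like against radial glia-like), and without shared barcodes GABAergic-like maturation called 3.
Values that reversed were uncalled. In cycling against radial glia-like cells on Illumina, Tuba1c became 0.061, Tubb2b 0.037 and Tubb4b 0.22 with tubulin genes kept, Tubb2b 0.037 without doublets and Tubb4b 0.00048 with no filter. On Nanopore Tubb2b became 0.048 and Tubb4b 0.22 with tubulin genes kept, Tubb2b 0.016 without doublets and Tubb4b 0.029 with no filter. With tubulin genes kept, Nanopore Tuba1c became -3.32 (maturation difference), 3.26 (GABAergic-like maturation), 0.036 (mature neurons) and -0.062 (glutamatergic-like maturation). Tubb2a between mature neurons became -0.034 on Illumina and -0.069 on Nanopore with no filter. Nanopore Tubb5 in glutamatergic-like maturation became -0.0076 with DESeq2, -0.0081 with other size factors, -0.0083 without doublets and -0.0088 without shared barcodes.
Without the 190 or the 951 cell aliquot, these values ran as follows. Tubb2b in cycling against radial glia-like cells ranged from -0.24 to 0.0054 on Illumina and from -0.28 to 0.036 on Nanopore, and Illumina Tubb5 in intermediate progenitor-like cells from -0.17 to 0.43. Illumina Tuba1c ranged from -1.18 to 1.77 (maturation difference), -0.45 to 0.62 (GABAergic-like maturation), -0.43 to 0.41 (mature neurons) and -0.55 to 1.32 (glutamatergic-like maturation). Tubb4b ranged from -0.26 to 0.071 on Illumina and -0.47 to 0.42 on Nanopore (GABAergic-like maturation) and from -0.18 to 1.07 on Nanopore (maturation difference). Nanopore Tuba1b ranged from -0.20 to 0.089 (GABAergic-like maturation) and -0.21 to 0.048 (mature neurons), and Nanopore Tubb5 from -0.0075 to 0.061 (glutamatergic-like maturation). Over single aliquots r ranged from -0.0467 to -0.0168 (Tuba1a with Tuba1b), 0.807 to 0.826 (Tuba1a with Tubb2b) and 0.293 to 0.310 (Tuba1b with Tubb4b). Among called values, Tubb3 against radial glia-like cells moved from 4.40 (951 cell aliquot) to 2.79 (190) for mature glutamatergic-like and from 3.03 to 1.11 for intermediate progenitor-like cells on Illumina, and Tuba1c from -4.68 to -1.97 for mature glutamatergic-like cells. Tuba1a in cycling against radial glia-like cells gave 0.70 and 0.30.
With all barcodes the tubulin share was 2.85% on Illumina and 3.92% on Nanopore. Unthinned, Tuba1b, Tuba1c, Tubb2a, Tubb3 and Tubb4b were detected in 98.6%, 32.9%, 88.6%, 75.7% and 88.6% of radial glia-like cells and in 95.7%, 8.24%, 99.3%, 100% and 82.8% of mature glutamatergic-like neurons. At 1000 UMIs Tuba1b, Tubb2a and Tubb4b had 77.1%, 30% and 37.1% in the former, and Tuba1b, Tubb2a, Tubb3 and Tubb4b 47.0%, 62.4%, 94.6% and 15.4% in the latter. In thinned cells r was -0.109 (Tuba1a with Tuba1b), 0.698 (Tuba1a with Tubb2b) and 0.180 (Tuba1b with Tubb4b).
Leaving out an aliquot gives a value with no test, and for isoform usage it was not run. With tubulin genes kept in the clustering no intermediate progenitor-like class was named, so its comparison has no value there. Counts of Tuba1c limit what can be said of it outside the radial glia-like and cycling classes, and 2 technical aliquots give no spread between animals.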

Other observations

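Over all cells, Tuba4a had 67 Illumina UMIs in the 190 cell aliquot and 43 in the 951 cell aliquot, although the second library was the deeper. Tuba3a and Tuba3b had 3 and 4 UMIs in the 190 cell aliquot and 0 in the other, and Tubb1 had 0 in both. Microglia markers, 6 genes, summed to 2.21 and 46.3 CPM over all cells, with 360 of 384 UMIs of the 951 cell aliquot in 3 intermediate progenitor-like cells, and meningeal markers, 4 genes, to 5.53 and 3.13 CPM.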
